A study of Aspergillus niger with 27 samples.

Results

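The 7 genes described here carry D-galacturonic acid, the main sugar acid of pectin, into the cell of the filamentous fungus Aspergillus niger, break it down and control both steps. They were chosen by their gene IDs, and are 7 of the 11846 gene models in the table. The names attached to the IDs come from the published nomenclature of the pathway, since the table itself gives none. The transporter is gatA (NRRL3_958). The catabolic enzymes are gaaA (NRRL3_5650), gaaB (NRRL3_6890), gaaC (NRRL3_5649) and gaaD, also called larA (NRRL3_10050). The regulators are the activator gaaR (NRRL3_8195) and the repressor gaaX (NRRL3_8194).

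GatA brings galacturonic acid across the plasma membrane. GaaA reduces it to L-galactonate, GaaB removes water to give a keto-deoxy sugar acid, the aldolase GaaC splits this into pyruvate and L-glyceraldehyde, and GaaD reduces the L-glyceraldehyde to glycerol. GaaD also acts as an L-arabinose reductase in pentose catabolism. GaaR is a zinc-cluster transcription factor that activates these genes and many pectinase genes, and GaaX holds GaaR inactive until the keto-deoxy intermediate accumulates. The gaaX transcript is itself known to be induced by galacturonic acid. The IDs place gaaC beside gaaA and gaaX beside gaaR, which are known as neighbouring pairs in the A. niger genome.

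RNA was sequenced from mycelium of single colonies grown on pie-plates, dishes divided into separate compartments of liquid medium under a membrane that hyphae do not cross. Compartments 4 to 6 held sugar beet pulp, a residue rich in pectin, compartments 7 to 9 held wheat bran, a residue rich in arabinoxylan and starch, and compartments 1 to 3 held glucose. Each of the 3 plates, named A, B and C, carried 1 colony inoculated at its centre and gave 1 library per compartment, 27 in all. The labels give neither a strain, a mutation nor an age of the colonies, and do not say which compartment of a substrate lay in the middle of its section. Each library pools the hyphae over a compartment, so fewer hyphae expressing a gene and less of its RNA per hypha cannot be told apart.

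Libraries held 12078576 to 20473260 counts on sugar beet pulp, 8006891 to 24501824 on wheat bran and 12822917 to 19406653 on glucose. The wheat bran compartment 9 libraries stood apart, with 8006891 to 11847598 counts. Their TMM scaling factor was 0.551 ± 0.0954, while compartment 7 had 0.947 ± 0.0804 and compartment 8 had 0.830 ± 0.0956 (SD, n = 3 plates). On sugar beet pulp the factor was 1.19 ± 0.0791, 1.44 ± 0.0767 and 1.46 ± 0.0915 in compartments 4, 5 and 6. On glucose it was 1.02 ± 0.314, 0.908 ± 0.142 and 1.09 ± 0.293 in compartments 1, 2 and 3. TMM factors correct each library for the share of its reads taken by a few abundant genes, and a larger factor lowers the scaled levels of a library. The lowest count of any of the 7 genes in a library was 51, and all 7 passed the filter on low counts. Mycelium was not checked against marker genes, because no marker could be joined to these IDs.

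Levels are given as CPM, a count divided by the TMM-scaled library total and multiplied up to a common size, and are compared within a gene only, since gene lengths were not used here. Values for a substrate come from summing the counts of its 3 compartments within each plate. Those sums were scaled separately from the 27 libraries, so substrate and compartment levels are on different scales. Tests are edgeR quasi-likelihood tests over all genes with the plate as a block and Benjamini-Hochberg adjustment, and passing means an adjusted p under 0.05. Over all 9 compartments, 6 of the 7 genes varied by this test, in which 61.8% of all genes passed. The exception was gaaC, with an adjusted p of 0.250. The adjusted p of the others ran from 3.6e-05 for gaaX to 0.0045 for gaaD. Dropping plate C ended the calls of gaaD (adjusted p = 0.0634) and gaaR (adjusted p = 0.111), and with scaling by library size alone gaaC passed (adjusted p = 0.0012).

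**Figure D1:**
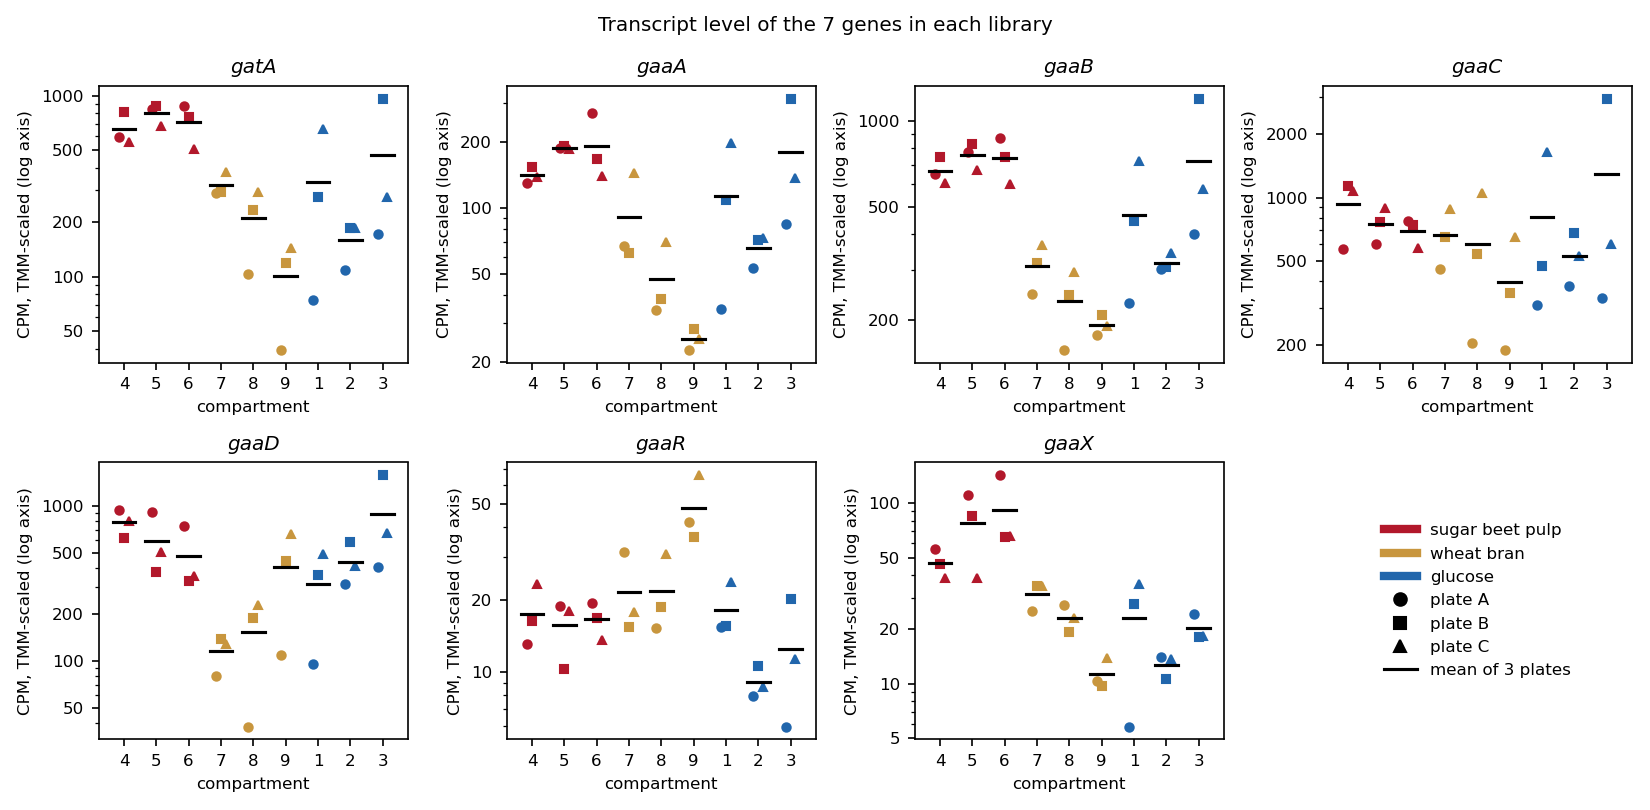
TMM-scaled CPM of each gene on a log axis against compartment number, with 1 point per library, shaped by plate and coloured by substrate, and a bar at the mean of the 3 plates. By their means, the transporter and gaaX lie highest in compartments 4 to 6, and gaaR lies highest in compartment 9 at 48.1 CPM. The glucose libraries spread widely between plates, and the highest single point of the transporter is in glucose compartment 3 of plate B.

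The transporter gatA and the repressor gene gaaX rose on sugar beet pulp relative to glucose, and the 4 enzyme genes and gaaR did not pass the test. The transporter stood at 828, 858 and 622 CPM on sugar beet pulp on plates A, B and C, against 136, 425 and 388 CPM on glucose. Each plate was higher on sugar beet pulp and the groups did not overlap. Its log2 fold change was 1.42 (SE 0.35), with an adjusted p of 0.0420. The repressor gene gaaX stood at 109.7, 71.9 and 51.4 CPM on sugar beet pulp, against 17.5, 23.4 and 23.7 CPM on glucose. These groups did not overlap either, and the ratio on a plate ran from 2.17 on plate C to 6.28 on plate A. The log2 fold change of gaaX was 1.82 (SE 0.29), with an adjusted p of 0.0095.

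The 2 genes that rose were 2 of 7, where 2.30% of all 11563 genes tested rose and 6.49% changed in either direction. The median log2 fold change of the 7 genes was 0.64, against 0.04 over all genes tested. The reductase gaaA stood at 209, 183 and 169 CPM on sugar beet pulp, against 66.2, 154 and 144 CPM on glucose. Its groups did not overlap, but its log2 fold change of 0.71 (SE 0.34) did not pass, with an adjusted p of 0.252. The dehydratase gaaB also did not overlap, with 824, 818 and 671 CPM on sugar beet pulp against 345, 609 and 584 CPM on glucose. Its log2 fold change was 0.64 (SE 0.24), with an adjusted p of 0.158. Both gaaA and gaaB passed under 3 alternatives, library size alone (adjusted p of 0.0482 and 0.0268), compartments 2, 5 and 8 alone (0.0071 and 0.0202) and all 27 libraries in 1 fit (0.0449 and 0.0220). Those fits called 2122, 1672 and 2587 genes of the whole table, against 750 in the fit used here.

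The aldolase gaaC, the reductase gaaD and the activator gaaR overlapped between these substrates. For gaaC the values were 699, 885 and 874 CPM on sugar beet pulp and 354, 1107 and 957 CPM on glucose. For gaaD they were 951, 433 and 553 CPM on sugar beet pulp and 313, 706 and 565 CPM on glucose. Both genes were higher on sugar beet pulp on plate A and lower on plates B and C. For gaaR they were 18.4, 14.97 and 18.7 CPM on sugar beet pulp and 9.24, 16.4 and 15.2 CPM on glucose. The log2 fold changes were 0.18 (SE 0.29) for gaaC, 0.42 (SE 0.47) for gaaD and 0.36 (SE 0.26) for gaaR, with adjusted p of 0.772, 0.656 and 0.462.

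Plate A held the lowest glucose value of the 3 plates for all 7 genes. The call of gatA rested on all 3 plates. When a plate was dropped its adjusted p was 0.116 for plate A, 0.0701 for plate B and 0.105 for plate C, and with no plate block it was 0.0723. It also lost its call, with an adjusted p of 0.0502 to 0.0771, on leaving out any 1 of 10 of the 27 libraries. These were sugar beet pulp compartments 6 of plate A and 5 of plate C, wheat bran compartments 7 and 9 of plate A, 7 of plate B and 8 of plate C, and glucose compartments 3 of plate A, 1 and 2 of plate B and 2 of plate C. The call of gaaX was kept in each of these fits, with log2 fold changes of 1.71 to 2.04 over the single libraries. It was lost with compartments 1, 4 and 7 alone, at 1.21, where 1 gene of the whole table passed and the adjusted p of gaaX was 0.889. The log2 fold change of gaaC turned to -0.14 without glucose compartment 1 of plate B.

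**Figure D2:**
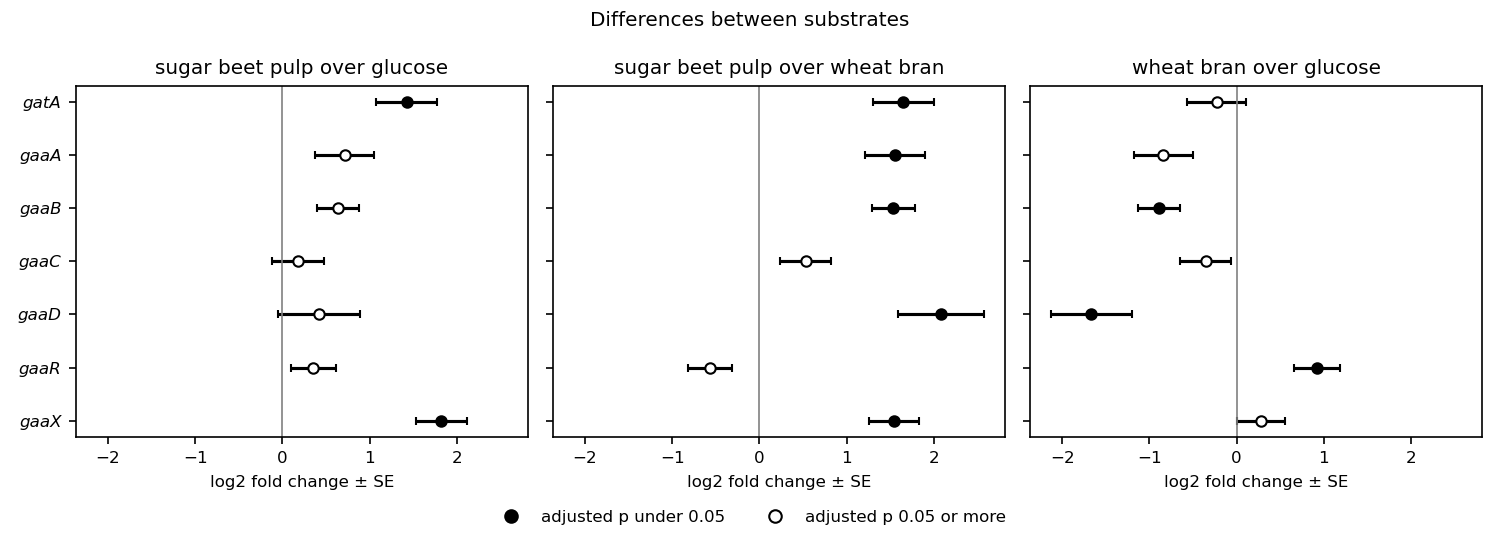
The log2 fold change of each gene between substrates, with its SE as the bar, from edgeR fits of the 9 sums. Filled points passed the adjusted p of 0.05. On sugar beet pulp gatA and gaaX were higher than on either other substrate, while gaaR, not filled, lies below 0 against wheat bran, at -0.57, where its sign turned with scaling by library size alone.

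Of the 7 genes 5 rose on sugar beet pulp relative to wheat bran, the transporter, 3 of the 4 enzyme genes and the repressor gene. In this comparison 21.7% of all genes rose and 42.0% changed. The median log2 fold change of the 7 genes was 1.54, against 0.0033 over all genes tested. On plates A, B and C, gatA stood at 828, 858 and 622 CPM on sugar beet pulp, against 193, 251 and 325 CPM on wheat bran. For gaaA the values were 209, 183 and 169 CPM on sugar beet pulp, against 50.6, 49.2 and 105 CPM on wheat bran. For gaaB they were 824, 818 and 671 CPM on sugar beet pulp, against 213, 279.8 and 326 CPM on wheat bran. None of these 3 genes overlapped between the substrates. The log2 fold changes of sugar beet pulp over wheat bran were 1.65 (SE 0.35) for gatA, 1.55 (SE 0.34) for gaaA and 1.53 (SE 0.25) for gaaB. Their adjusted p were 0.0046, 0.0057 and 0.0012.

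The reductase gaaD showed the widest gap, with 951, 433 and 553 CPM on sugar beet pulp against 72.4, 208 and 229 CPM on wheat bran, and a log2 fold change of 2.09 (SE 0.49, adjusted p = 0.0079). Its plates differed in size, since the ratio of sugar beet pulp to wheat bran was 13.1 on plate A, 2.08 on plate B and 2.41 on plate C. The repressor gene gaaX stood at 109.7, 71.9 and 51.4 CPM on sugar beet pulp against 24.5, 25.7 and 28.3 CPM on wheat bran, without overlap, a log2 fold change of 1.54 (SE 0.29, adjusted p = 0.0025). The aldolase gaaC overlapped, with 699, 885 and 874 CPM on sugar beet pulp against 341, 577 and 943 CPM on wheat bran, and a log2 fold change of 0.53 (SE 0.29, adjusted p = 0.172). With library size alone gaaC passed, at 1.23 (adjusted p = 0.0055).

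The activator gaaR stood at 18.4, 14.97 and 18.7 CPM on sugar beet pulp, against 28.4, 20.2 and 28.5 CPM on wheat bran. The wheat bran values lay above all 3 on sugar beet pulp, but its log2 fold change of -0.57 (SE 0.26) did not pass, with an adjusted p of 0.102. With scaling by library size alone it was 0.13, while the median of all genes moved to 0.68. It passed, lower on sugar beet pulp, with all 27 libraries in 1 fit, at -0.76 (adjusted p = 0.0052), and with compartments 3, 6 and 9 alone, at -1.53 (adjusted p = 0.0076). All 5 calls were kept on leaving out any plate or any single library, and without compartment 9. With compartments 1, 4 and 7 alone only gaaD passed, and with 3, 6 and 9 alone gaaD lost its call, at a log2 fold change of 0.53 (adjusted p = 0.532).

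Of the 7 genes 2 fell and 1 rose on wheat bran relative to glucose. The dehydratase gaaB, at 213, 279.8 and 326 CPM on wheat bran against 345, 609 and 584 CPM on glucose, fell by 0.89 on the log2 scale (SE 0.24, adjusted p = 0.0201). The reductase gaaD, at 72.4, 208 and 229 CPM on wheat bran against 313, 706 and 565 CPM on glucose, fell by 1.66 (SE 0.47, adjusted p = 0.0228). The activator gaaR, at 28.4, 20.2 and 28.5 CPM on wheat bran against 9.24, 16.4 and 15.2 CPM on glucose, rose by 0.92 (SE 0.26, adjusted p = 0.0237). None of the 3 overlapped between the substrates. In this comparison 32.1% of all genes changed, 15.8% higher and 16.3% lower on wheat bran. The reductase gaaA had a log2 fold change of -0.84 (SE 0.34, adjusted p = 0.0828), gatA of -0.22 (SE 0.34, adjusted p = 0.642), gaaC of -0.35 (SE 0.29, adjusted p = 0.384) and gaaX, whose groups did not overlap, of 0.28 (SE 0.28, adjusted p = 0.468). All 3 calls were lost when plate C was dropped, and also on leaving out the plate A library of glucose compartment 3, with adjusted p of 0.0987 for gaaB, 0.0701 for gaaD and 0.0603 for gaaR. Dropping plate B ended the call of gaaB. The reductase gaaA passed, lower on wheat bran, with DESeq2 (adjusted p = 0.0458), with library size alone (0.0234), without plate A (0.0497), with compartments 3, 6 and 9 alone (4.4e-04) and with all 27 libraries in 1 fit (9.4e-04). It also passed on leaving out glucose compartment 1 of plate A (adjusted p = 0.0423) or wheat bran compartment 7 of plate C (adjusted p = 0.0156). The call of gaaR was also lost when plate A was dropped, without compartment 9, at 0.74 (adjusted p = 0.0691), and with scaling by library size alone, at 0.63 (adjusted p = 0.0762).

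Ratios of 2 genes within a library do not depend on scaling between libraries. The ratios come from counts without gene lengths, so only their differences between samples can be read. With 3 plates against 3 the exact permutation test cannot go below p = 0.10, and none of the 18 differences passed after adjustment over them, with 0.20 as the lowest adjusted p.

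In the sums per substrate, transporter counts relative to those of gaaA were higher on both plant residues, though no difference passed. The log2 ratio of gatA over gaaA was 1.99, 2.23 and 1.88 on sugar beet pulp, 1.93, 2.35 and 1.64 for wheat bran, and 1.04, 1.47 and 1.43 on glucose, on plates A, B and C. In these sums both residues lay above glucose on all 3 plates without overlap, by 0.72 for sugar beet pulp and 0.66 for wheat bran (exact two-sided permutation p = 0.10 each, the smallest possible). Single libraries did overlap. The ratio was 1.73 in glucose compartment 1 of plate C and 1.70 in sugar beet pulp compartment 6 of plate A. In wheat bran compartment 9 of plate A it was 0.807, the lowest of the 27 libraries.

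The log2 ratio of gaaX over gaaA averaged -1.33 ± 0.39 on sugar beet pulp, -1.29 ± 0.52 on wheat bran, and -2.42 ± 0.43 on glucose (SD, n = 3 plates). It was 1.09 higher on sugar beet pulp and 1.13 higher on wheat bran than on glucose, on 3 of 3 plates each, with no overlap (exact permutation p = 0.10). The log2 ratio of gaaD over gaaA averaged 1.72 ± 0.47 on sugar beet pulp, 1.24 ± 0.79 on wheat bran and 2.14 ± 0.15 on glucose, with overlap in each comparison. By compartment, gaaD over gaaA on wheat bran averaged 0.42, 1.39 and 3.66 in compartments 7, 8 and 9.

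For the neighbours gaaA and gaaC, the log2 ratio of gaaC over gaaA averaged 2.13 ± 0.34 on sugar beet pulp, 3.16 ± 0.40 for wheat bran, and 2.67 ± 0.22 on glucose (SD, n = 3 plates). It was lower on sugar beet pulp than on wheat bran by 1.01, 1.28 and 0.799 on plates A, B and C, without overlap (exact permutation p = 0.10). The ratio of gaaB over gaaA differed by less than the spread between plates in each comparison, with mean differences of -0.08, -0.03 and -0.05 on the log2 scale for sugar beet pulp over glucose, sugar beet pulp over wheat bran and wheat bran over glucose. The SD of these plate differences was 0.29, 0.35 and 0.50. In single libraries gaaB over gaaA was 2.97, 2.89 and 2.91 in wheat bran compartment 9, above all other libraries. The next was 2.73 in glucose compartment 1 of plate A. Wheat bran compartments 7 and 8 averaged 1.86 and 2.32.

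Of the ratios computed, gaaX over gaaR, the repressor over the activator, had the widest gap between substrates. It was 2.58, 2.26 and 1.46 on sugar beet pulp, -0.21, 0.35 and -0.01 for wheat bran, and 0.92, 0.51 and 0.64 on glucose, on plates A, B and C. In these sums the 3 substrates did not overlap, and sugar beet pulp exceeded wheat bran by 2.06 ± 0.67 and glucose by 1.41 ± 0.52 (SD over 3 plates, exact permutation p = 0.10 each). By compartment, gaaX over gaaR on wheat bran averaged 0.60, 0.15 and -2.05 in compartments 7, 8 and 9. In wheat bran compartment 9 the ratio was -2.02, -1.90 and -2.24, below all other libraries, of which the lowest was -1.41 in glucose compartment 1 of plate A. It was highest in sugar beet pulp compartment 6, at 2.89, 1.96 and 2.28, and compartment 5, at 2.55, 3.05 and 1.09.

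**Figure D3:**
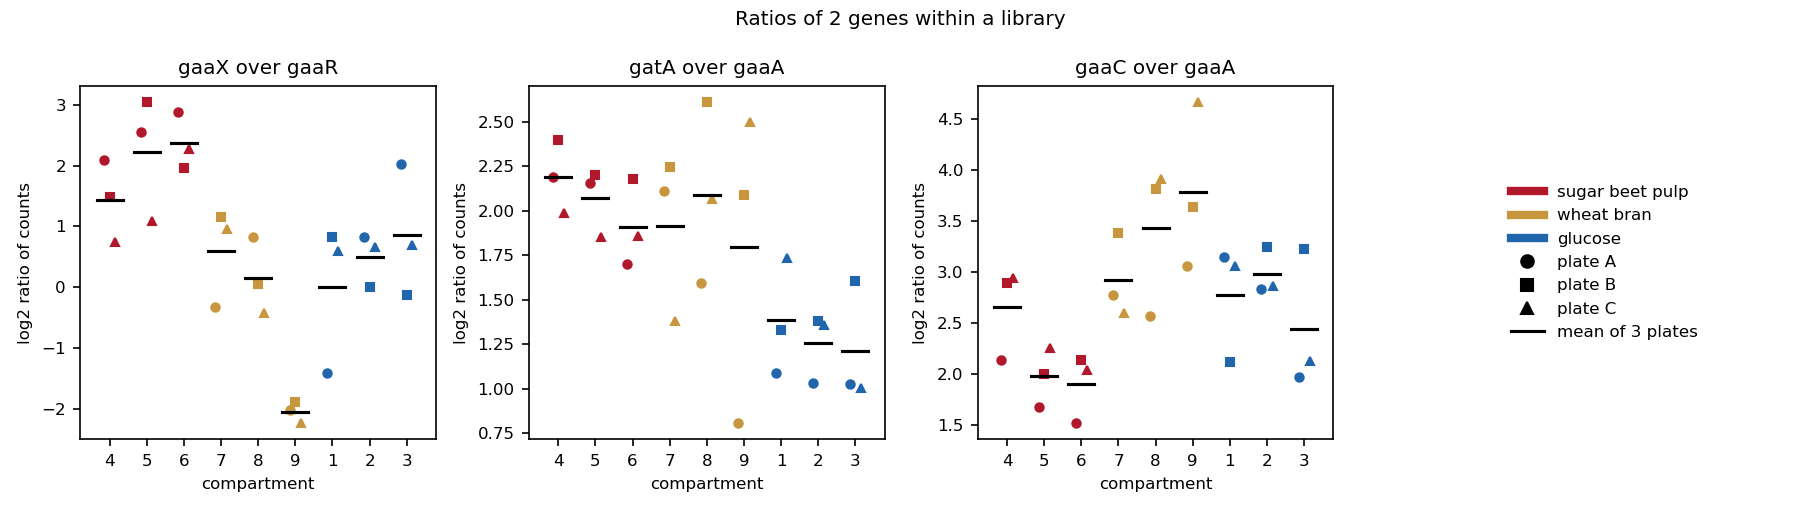
Log2 ratio of the raw counts of 2 genes in each library against compartment number, with 1 point per library, shaped by plate and coloured by substrate, and a bar at the mean of the 3 plates. The ratio of gaaX over gaaR averages 2.37 in compartment 6 and -2.05 in compartment 9, and that of gatA over gaaA lies lowest, on average, in the 3 glucose compartments.

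No difference among the 3 sugar beet pulp compartments passed for any of the 7 genes. The transporter averaged 651 ± 138, 797 ± 107 and 715 ± 190 CPM in compartments 4, 5 and 6, and gaaB 668 ± 70.9, 758 ± 80.04 and 739 ± 135 CPM (SD, n = 3 plates). The edgeR test for any difference called 0 of the 7, where 0.874% of all genes passed. DESeq2 also called 0, and 0 had an unadjusted edgeR p under 0.05. The repressor gene, with the lowest p of the 7, stood at 56.0, 45.8 and 38.6 CPM in compartment 4, 111, 84.9 and 38.4 CPM in compartment 5, and 143, 65.1 and 65.7 CPM in compartment 6. Its log2 fold change of compartment 4 over 6 was -0.94 (SE 0.45), with an unadjusted p of 0.0462 and an adjusted p of 0.397, where 1.41% of all genes passed and 0 of the 7. A fit of the sugar beet pulp libraries alone called 2 of the 7 in that pair, gaaX with compartment 4 lower (adjusted p = 0.0220) and gaaD with compartment 4 higher. That fit called 2152 genes of the whole table in the pair, against 155 in the fit of 27 libraries. None of the 7 passed in compartment 4 over 5 (0.127% of all genes) or 5 over 6 (0%).

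Among the wheat bran compartments the transporter, gaaA and the repressor gene were higher in compartment 7 than in 9, and the activator and gaaD were lower. The transporter stood at 289, 295 and 377 CPM in compartment 7, 104, 235 and 294 CPM in compartment 8, and 39.5, 119.8 and 144 CPM in compartment 9, on plates A, B and C. The reductase gaaA stood at 66.9, 62.2 and 145 CPM in compartment 7, 34.4, 38.4 and 70.3 CPM in compartment 8, and 22.6, 28.2 and 25.5 CPM in compartment 9. Compartment 9 lay below compartment 7 on each plate for both genes, without overlap. The log2 fold change of compartment 7 over 9 was 1.82 (SE 0.55, adjusted p = 0.0121) for gatA and 1.79 (SE 0.47, adjusted p = 0.0044) for gaaA.

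The repressor gene stood at 25.2, 34.6 and 34.6 CPM in compartment 7, 27.2, 19.5 and 23.0 CPM in compartment 8, and 10.3, 9.78 and 13.96 CPM in compartment 9. Its log2 fold change of compartment 7 over 9 was 1.48 (SE 0.47, adjusted p = 0.0151). The activator gaaR stood at 31.5, 15.5 and 17.8 CPM in compartment 7, 15.3, 18.7 and 31.0 CPM in compartment 8, and 42.0, 36.4 and 65.9 CPM in compartment 9. All compartment 9 values of gaaR lay above those of both other wheat bran compartments. The log2 fold change of gaaR was -1.11 (SE 0.39, adjusted p = 0.0274) for compartment 7 over 9 and -1.16 (SE 0.39, adjusted p = 0.0334) for 8 over 9. The reductase gaaD stood at 80.6, 138 and 129 CPM in compartment 7, 37.8, 190.04 and 231 CPM in compartment 8, and 109.6, 445 and 664 CPM in compartment 9. Its log2 fold change of compartment 7 over 9 was -1.71 (SE 0.64, adjusted p = 0.0377).

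By the edgeR test for any difference among the wheat bran compartments 4 of 7 genes differed, where 32.4% of all genes did. These were gatA, gaaA, gaaR and gaaX, while gaaD did not pass it (adjusted p = 0.0611). For compartment 7 over 9 the calls were 3 higher and 2 lower, where 39.4% of all genes passed, 21.2% higher and 18.3% lower. For 8 over 9 the only call was gaaR, lower, where 23.8% passed and 10.8% were lower. For compartment 7 over 8, 0 of the 7 passed with edgeR or DESeq2, 0 had an unadjusted p under 0.05, and 0% of all genes passed. Several of these calls depended on scaling. With library size alone the compartment 7 over 9 differences were -0.33 for gaaR (adjusted p = 0.451) and -0.90 for gaaD (adjusted p = 0.247), where the median of all genes was 0.84. The compartment 8 over 9 difference of gaaR was then -0.56 (adjusted p = 0.238), where that median was 0.61, and gatA, gaaA and gaaX passed instead, higher in compartment 8. The call of gaaR among the 3 compartments was also lost (adjusted p = 0.417). With RLE factors, another scaling, gatA and gaaX lost their calls among the 3 compartments, while gaaA and gaaR kept theirs. Without the plate block the transporter lost its call among the 3 compartments (adjusted p = 0.103). Dropping plate C ended every one of these calls. Of the calls in single pairs, dropping plate B left those of gatA and gaaA in compartment 7 over 9, and dropping plate A ended those of gatA and of gaaR in 8 over 9.

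On glucose the plates lay far apart. In compartment 3 gatA stood at 173, 962 and 276 CPM on plates A, B and C, and in compartment 1 at 74.2, 275 and 656 CPM. In compartment 2 it stood at 109, 186 and 186 CPM. The plate B library of compartment 3 held the highest TMM-scaled value of all 27 libraries for the transporter and all 4 enzyme genes. With scaling by library size alone that held for gaaC only, at 2225 CPM. The transporter was then at 723 CPM there, against 1374 CPM in sugar beet pulp compartment 6 of plate A. The TMM-scaled gaaC level of this library was 2963 CPM, while compartment 3 had 335 CPM on plate A and 602 CPM on plate C. In the same library gaaX stood at 18.3 CPM, within the range of the other glucose libraries. By the edgeR test for any difference among these compartments 0 of the 7 genes passed, where 0.118% of all genes did. An unadjusted p under 0.05 was reached by 3 of them, gatA, gaaA and gaaB, and DESeq2 called 0. For gatA the log2 fold change of compartment 2 over 3 was -1.44 (SE 0.55, adjusted p = 0.998). In the glucose pairs 0 of 7 passed, where 0.0546% of all genes did for compartment 1 over 2, 0.0273% for 1 over 3 and 0.00910% for 2 over 3.

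Single compartments of different substrates were also set side by side in the fit of 27 libraries. The repressor gene gaaX rose in 7 of the 9 pairs of a sugar beet pulp and a glucose compartment, over which 2.41% of all tests of a gene in a pair did. The pairs in which it did not pass were compartment 4 over 1 and 4 over 3, at log2 fold changes of 0.97 and 1.21. The transporter, gaaA and gaaB each rose in 2 of these 9 pairs, compartments 5 and 6 over glucose compartment 2. In those 2 pairs 9.93% and 18.7% of all genes passed in either direction, where the 9 pairs ran from 0.0728% to 18.7%. Over glucose compartment 3 the log2 fold changes of gatA, gaaA and gaaB were -0.29 to 0.98, and none passed.

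Over the wheat bran compartments gaaB rose in 9 of 9 pairs, and gatA, gaaA, gaaD and gaaX in 6 of 9 each, where 16.2% of all tests of a gene in a pair were higher. The pairs without a call were the 3 with compartment 7 for gatA and gaaA, the 3 with compartment 9 for gaaD, and compartments 4 over 7, 4 over 8 and 5 over 7 for gaaX. The activator gaaR fell in 3 of 9 pairs, those with compartment 9, where 16.4% of all tests over the 9 pairs were lower. In the 3 pairs with compartment 9 more genes passed, 46.4%, 54.4% and 54.5% in either direction for compartments 4, 5 and 6 over 9. In the 9 pairs of a wheat bran and a glucose compartment, gaaR rose in 5, where 12.3% of all tests were higher. There gaaA and gaaB fell in 4 pairs each, gaaD in 3, gatA in 2 and gaaC in 1, where 11.9% were lower. By single pair 4.89% to 49.9% of all genes passed in either direction, most in the pairs with compartment 9. The 27 pairs share libraries, so they are no independent comparisons.

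In order of mean level, gatA ran from 797 CPM in compartment 5 through 6, 4, 3, 1, 7, 8 and 2 to 101 CPM in compartment 9, a ratio of 7.88. The order for gaaA was 6, 5, 3, 4, 1, 7, 2, 8 and 9, with a ratio of 7.59, and for gaaB 5, 6, 3, 4, 1, 2, 7, 8 and 9, with a ratio of 3.94. For gaaC it was 3, 4, 1, 5, 6, 7, 8, 2 and 9, with a ratio of 3.28. For gaaD it was 3, 4, 5, 6, 2, 9, 1, 8 and 7, with a ratio of 7.63. For gaaR it was 9, 8, 7, 1, 4, 6, 5, 3 and 2, with a ratio of 5.30, and for gaaX 6, 5, 4, 7, 8, 1, 3, 2 and 9, with a ratio of 8.04. Of the 56 pairs of neighbours in these orders, 1 passed, compartments 9 and 8 for gaaR, a call that was lost with scaling by library size alone. With scaling by library size alone the highest and lowest compartments were the same for each gene except gaaD, whose highest was compartment 4.

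Across the 27 libraries gaaA and gaaB were the closest pair of the 7, with a Pearson r of log2 CPM of 0.96, and gatA had an r of 0.91 to gaaA and 0.90 to gaaB. For the neighbours gaaC and gaaA r was 0.73. For the neighbours gaaX and gaaR r was -0.13, and 0.21 without compartment 9. These values are descriptions, since the 27 libraries come from 3 colonies and share plates, scaling and the library differences given above.

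Genes next to the 7 by number were looked at because gaaA and gaaC, and gaaX and gaaR, are such neighbours. Of the 20 IDs within 2 numbers of a member, 19 passed the filter on low counts. Of these, 1 rose and 0 fell on sugar beet pulp over glucose, where 6.49% of all genes changed. That one was NRRL3_957, next to the transporter, at 4.80 ± 0.545 CPM on sugar beet pulp and 2.61 ± 0.451 CPM on glucose (SD, n = 3 plates), with a log2 fold change of 0.89 (SE 0.20, adjusted p = 0.0337). Over wheat bran 6 rose and 1 fell, where 42.0% of all genes changed, and wheat bran over glucose gave 3 higher and 3 lower, where 32.1% did.

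Likeness to the pathway was measured as the Pearson r over the 27 libraries between a gene's log2 CPM and the mean centred log2 CPM of gaaA, gaaB, gaaC and gatA. Outside the 7, the 5 genes most alike were NRRL3_5260 (r = 0.94), NRRL3_10866 (0.91), NRRL3_2571 (0.89), NRRL3_3144 (0.89) and NRRL3_10865 (0.87). Without compartment 9 these values were 0.91, 0.87, 0.88, 0.85 and 0.81. The IDs NRRL3_10865 and NRRL3_10866 are neighbours. Of the members outside the mean, gaaX had r = 0.71, gaaD 0.66 and gaaR -0.17. Without compartment 9 these were 0.63, 0.75 and 0.30, and with scaling by library size alone 0.84, 0.76 and 0.19, so the sign for gaaR turned. The aldolase gaaC, itself part of the mean, had r = 0.85.

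All 5 of these genes rose on sugar beet pulp over glucose, where 2.30% of all genes did. NRRL3_10866 averaged 725 ± 236, 799 ± 204 and 873 ± 282 CPM in compartments 4, 5 and 6, 149 ± 84.5, 74.5 ± 45.3 and 25.7 ± 19.2 CPM in compartments 7, 8 and 9, and 208 ± 178, 75.2 ± 10.5 and 234 ± 106 CPM in compartments 1, 2 and 3 (SD, n = 3 plates). Its log2 fold change was 2.20 (SE 0.26, adjusted p = 0.0033) for sugar beet pulp over glucose and 3.11 (SE 0.27, adjusted p = 1.1e-04) over wheat bran. The other 4 had log2 fold changes of 1.52 to 2.28 over glucose and 1.95 to 3.16 over wheat bran, with adjusted p of 0.0101 to 0.0193 and 1.2e-04 to 0.0065. They were picked for their likeness over the same libraries, so these folds are a description of them.

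**Figure D4:**
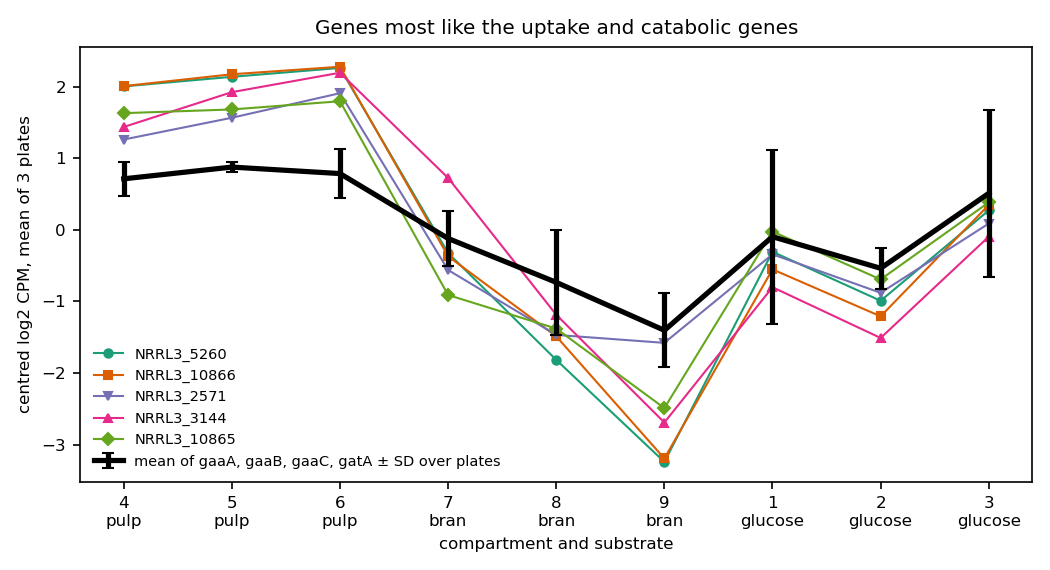
Centred log2 CPM by compartment, averaged over 3 plates, for the mean of gaaA, gaaB, gaaC and gatA (black, with the SD over plates) and for the 5 other genes most like it. Lines join compartments by number and stand for no path on the plate. The 5 genes lie above the black line in compartments 4 to 6 and below it in compartments 8 and 9.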

How the data were processed

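Mycelium from 9 compartments on each of 3 plates gave total RNA, which per the labels was turned into full-length cDNA and read on an Ion Proton sequencer. The deposited table holds whole-number counts of reads for each gene model, and the authors applied no normalization to it. The submitters' processing notes name HTSeq and DESeq2 with neither a version nor a role. The sources used here do not give the aligner, genome build, annotation or strand setting, so reads shared by overlapping or near-identical genes may be split in unknown ways. Every column matched a library's label.

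The analysis used edgeR 4.0.16 in R 4.3.3 (TMM, filterByExpr, quasi-likelihood F-test, Benjamini-Hochberg adjustment over all genes tested). Substrates were compared on 9 sums, 1 per substrate and plate (11563 genes, 4 residual degrees of freedom), and compartments in 1 fit of 27 libraries (10990 genes, 16 residual degrees of freedom). The SE was obtained as the size of the log2 fold change over the root of F. Log2 CPM for likeness had a prior count of 2. The plate entered as a block because the labels place its 9 libraries in 1 colony, and it is the replicate. Libraries sharing a plate deviated from their compartment means with an average r of 0.126 (108 pairs, 60 over 0.1). No 2 libraries of a compartment agreed within sampling noise (lowest chi-square per degree of freedom 31.3). Ratios were tested by exact permutation in scipy 1.17.1. Precision from depth covers counting error only. The scripts were tested on simulated data.

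Alternatives were DESeq2 1.42.0, other scaling, no filter, plates, compartments or single libraries left out, no block, and a section alone. Substrates were also compared in the fit of 27 libraries, which counts compartments of 1 colony as separate samples. The genes named are the 7, the IDs within 2 numbers of them and the 5 most alike. Members, lists and tests were chosen with earlier results of these data known. Other pectin and pentose genes, sequences and coordinates were not analysed here.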

Additional observations from a re-analysis of the deposited data

How the results depend on the processing

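The number of the 7 genes called changed with some settings. For sugar beet pulp over glucose it was 2, against 4 with library size alone, 4 with compartments 2, 5 and 8 alone and 4 with all 27 libraries in 1 fit. Genes called over the whole table numbered 750, against 2122, 1672 and 2587 in those 3 fits. Of the 7, 1 was called without the replicate block, 1 with compartments 3, 6 and 9 alone and 0 with compartments 1, 4 and 7 alone. Those fits called 618, 598 and 1 genes of the whole table. Leaving out a plate or a single library gave 1 to 2 of the 7. For sugar beet pulp over wheat bran the number of the 7 was 5, and 1 with compartments 1, 4 and 7 alone. The whole table then gave 372 calls, against 4854. For wheat bran over glucose the number of the 7 was 3, against 0 with compartments 1, 4 and 7 alone, 1 with 2, 5 and 8 alone, and 0 to 4 on leaving out a plate or a library. The whole table gave 3711 calls, against 172 with compartments 1, 4 and 7 alone and 1950 with 2, 5 and 8 alone. Among the wheat bran compartments the number of the 7 was 4, against 2 with RLE factors (gaaA and gaaR) and 0 to 4 without a plate. The whole table gave 3558 calls, against 3615 with RLE factors and 383 without plate C, the plate whose removal left 0 of the 7. For compartment 7 over 9 the number of the 7 was 5, and 0 to 4 without a plate. For 8 over 9 it was 1, against 3 with library size alone, 4 with the section alone and 0 without any 1 plate. For 4 over 6 it was 0, and 2 with the section alone, where 2152 genes of the whole table passed, against 155. Leaving out plates or libraries uses fewer samples, and the cause of the other changes was not tested.

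Signs turned for differences that had not passed. For gaaC, sugar beet pulp over glucose was -0.24 without plate A and -0.37 with compartments 3, 6 and 9 alone, and for gaaD it was -0.37 and -0.59. For gaaR it was -0.091 with compartments 1, 4 and 7 alone. For gaaR, sugar beet pulp over wheat bran was 0.13 with library size alone. For gatA, wheat bran over glucose was 0.061 without plate B, 0.22 with compartments 1, 4 and 7 alone and 0.37 with 2, 5 and 8 alone. For gaaX it was -0.013 with library size alone and -0.80 with 3, 6 and 9 alone. Of 392 recomputed single differences, 322 kept direction and call. All 90 recomputed ratio differences moved by less than the SD over plates, though 9 changed sign. Of 63 compartment levels, 18 moved by more than 1 SD with library size alone. The library-size median of all genes was 0.43, 0.68 and -0.29 for the 3 substrate comparisons in the order used above. Removing the plate block ended the call of gatA for sugar beet pulp over glucose (1.28, adjusted p = 0.0723) and among the 3 wheat bran compartments (adjusted p = 0.103). It changed no other call of the 7 genes in the comparisons refitted without it. Leaving out single libraries was chosen after seeing the data.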
